A study of Mus musculus with 12 samples.

Results

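The cytosolic ribosomal protein genes were examined in RNA-seq of purified mouse splenic B cells. Members were the gene symbols of the form Rpl or Rps followed by a number, with or without a final a, together with Rplp0 to Rplp2 and Rpsa. The rule found 75 genes among 32699 symbols: 43 of the large subunit, 29 of the small subunit and 3 of the P stalk, the arm of the large subunit that recruits translation factors. They covered 130 of the 63759 transcripts in the table, and all 75 were among the 19125 genes tested. The rule leaves out cytosolic ribosomal proteins with other kinds of name, of which Rps4x, Rps3a1, Fau and Rack1 are given separately.

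The 12 libraries formed 4 groups of 3. Cells labelled wild-type (WT) were unstimulated at 0 hr (replicates 1 to 3) or had 48 hr of culture with lipopolysaccharide (LPS, 10 µg/ml) and mouse interleukin 4 (IL-4, 25 ng/ml) (replicates 7 to 9). Cells labelled as a knockout (KO) of Chd4, the ATPase of the NuRD chromatin remodelling complex, were unstimulated (replicates 4 to 6) or stimulated in the same way (replicates 10 to 12). The Cre driver, the deleted part of the gene and the age of the mice were not given in the sources used here. Nor do the labels say that replicates came from separate animals, so the spread behind each p-value is that of these libraries and could be technical.

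Estimated counts totalled 38956484 to 53189198 per library. The 6 B cell markers summed to between 5295 and 9042 CPM (counts divided by the scaled library total, in the usual unit) in every library, against 37.6 to 111 CPM for 6 T cell markers. Chd4 RNA did not separate the labels at 0 hr, with 99.4, 68.1 and 92.8 CPM in WT and 100, 70.6 and 92.8 CPM in KO. At 48 hr Chd4 was at 102, 96.1 and 123 CPM in WT and 51.3, 38.8 and 74.7 CPM in KO, a log2 fold change of -0.96 (SE 0.22, edgeR adjusted p = 0.038). The call was lost (edgeR adjusted p from 0.055 to 0.16), with log2 fold changes from -0.81 to -1.07, when any 1 of 7 libraries was left out: WT 0 hr replicates 1 and 3, WT 48 hr replicates 7 to 9, and KO 48 hr replicates 10 and 11. It was also lost with library totals alone (-0.93, adjusted p = 0.057) and with no low-count filter (-0.96, adjusted p = 0.050). KO below means a library labelled KO. Xist, the X-inactivation RNA, averaged 259 CPM in WT and 1.57 CPM in KO at 0 hr, and the Y-linked Ddx3y ran from 23.5 to 28.3 CPM in WT and from 91.8 to 139 CPM in KO, so genotype and sex-linked expression cannot be told apart here.

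Each ribosome carries a single copy of most of these proteins, and the genes are expressed together in nearly all cells. Their mRNAs are known for a 5′ terminal oligopyrimidine (TOP) tract, a run of C and U at the cap through which the kinase mTORC1 and the cap-binding protein LARP1 control their translation and stability. A resting B cell has a small cytoplasm, and mitogens and cytokines are known to start growth and ribosome production before the cell divides.

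The start sites of 6 members are shown, chosen among the members with a single matched start site. Of those members, Rps27, Rps9 and Rpl13 gave the smallest changes from 0 hr to 48 hr in WT. Rpl38, Rpl5 and Rpl39 gave the largest, as described further on. Each window runs from 70 bases before the RefSeq transcript start to 10 after it, 5′ to 3′ on the gene's strand, in the GRCm38.p6 build. The longest run of C and T in each window is in capitals.
Rps27, chr3:90213639-90213718, minus strand: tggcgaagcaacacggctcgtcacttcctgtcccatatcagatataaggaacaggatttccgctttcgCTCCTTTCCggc
Rps9, chr7:3703971-3704050, plus strand: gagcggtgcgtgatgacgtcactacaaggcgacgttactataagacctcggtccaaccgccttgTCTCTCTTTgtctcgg
Rpl13, chr8:123102280-123102359, plus strand: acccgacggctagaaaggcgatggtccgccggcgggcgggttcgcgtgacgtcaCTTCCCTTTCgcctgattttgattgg
Rpl38, chr11:114668510-114668589, plus strand: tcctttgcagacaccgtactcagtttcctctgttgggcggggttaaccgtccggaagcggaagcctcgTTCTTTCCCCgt
Rpl5, chr5:107900458-107900537, plus strand: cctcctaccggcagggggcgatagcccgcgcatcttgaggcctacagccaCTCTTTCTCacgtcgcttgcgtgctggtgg
Rpl39, chrX:37085213-37085292, minus strand: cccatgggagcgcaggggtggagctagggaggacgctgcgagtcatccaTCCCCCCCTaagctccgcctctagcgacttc

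The run was 9 or 10 bases long in all 6 windows. It began 2 bases before the annotated start in Rps27, which had the smallest change of all members, and likewise in Rpl38, which had the largest. Promoter windows were matched for 55 of the 75 members (65 windows). A run of at least 8 C or T bases on the transcribed strand, within the 100 bases centred on the start, was present in 83.1% of the member windows and in 35.7% of all 32851 windows of that length. Over 300 bases and both strands, the ETS factor core CCGGAAG was found in 36.9% of member windows and 8.86% of all windows, and the YY1 motif AAGATGGC in 10.8% and 2.75%. The SP1 core GGGCGG was in 60.0% and 35.7%, the E-box CACGTG in 12.3% and 7.15%, and the TATA box TATAAA in 9.23% and 13.6%. A match of letters is a description and not a binding site.

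Nearly the whole set was higher after 48 hr with LPS and IL-4 in WT cells. No group analysed here was cultured without them, so stimulation and time in culture cannot be told apart. Of the 75 members, 74 were higher at 48 hr than at 0 hr and 0 were lower (edgeR quasi-likelihood test, adjusted p below 0.05 over all 19125 genes), where 33% of all tested genes were higher and 40.9% lower, or 73.9% in all. The median log2 fold change of the members was 2.24, or 4.72-fold, against -0.39 over all tested genes. The medians were 2.43 for the large subunit, 2.23 for the small subunit and 2.11 for the P stalk. In 74 members the WT libraries at 48 hr lay above those at 0 hr without overlap, as they did in 34.9% of all tested genes. No member lay wholly below, as 44.9% of all tested genes did. These are relative levels: no spike-in RNA was reported in the labels, so RNA per cell is not known, and in bulk RNA fewer cells of a type and less RNA per cell cannot be told apart. The size depends on how libraries were scaled. With upper-quartile scaling the WT median was 1.57, and with library totals alone it was 1.36. The median of all tested genes moved with it to -1.06 and -1.28. A scaling factor shifts every gene alike, so the distance between members and all genes stayed at 2.63 under all 3 scalings by construction. The low-count filter did move that distance, to 2.95 with no filter and 2.26 with at least 1 CPM in 3 libraries. Most markers of other blood cells were lower at 48 hr in WT: all 6 myeloid, 4 erythroid and 4 platelet markers tested, 5 of 6 T cell markers and 4 of 5 NK cell markers. The fifth NK marker, Gzma, a granule protease, was higher (1.51), and of 5 plasma cell markers 2 were higher and 2 lower. Of the 6 B cell markers 1 was higher and 3 were lower, with log2 fold changes from -1.49 to 0.89 and a median of -0.76. The myeloid markers summed to 107 to 212 CPM at 0 hr and 7.91 to 9.60 CPM at 48 hr, the platelet markers to 41.8 to 68.7 CPM and 1.56 to 2.01 CPM, the plasma cell markers to 359 to 491 CPM and 574 to 578 CPM, and the B cell markers to 6487 to 8035 CPM and 5734 to 6301 CPM. Their part in the rise of the members was not tested.

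**Figure D1:**
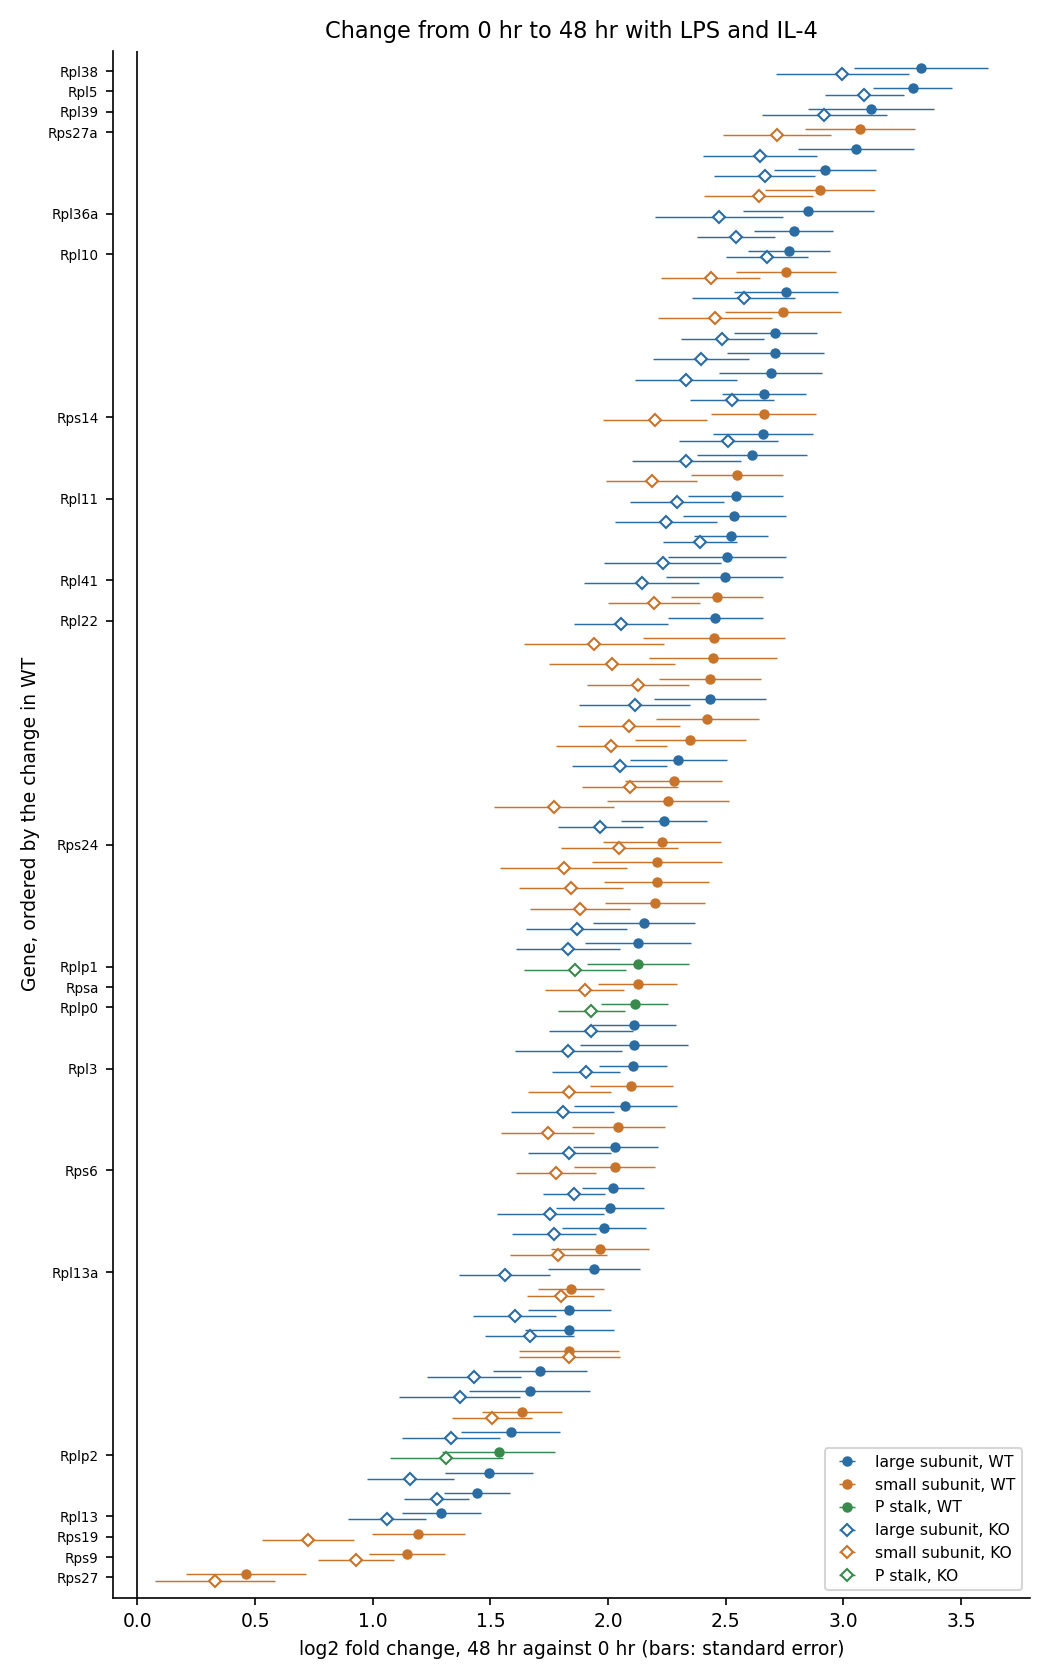
Log2 fold change from 0 hr to 48 hr for each of the 75 genes, in WT (filled circles) and KO (open diamonds), with bars for the standard error and colours for the subunit; only some of the genes described in the text are labelled. Rps27 sits apart at the foot, and Rpl38 and Rpl5 at the top lie near 3 in both genotypes.

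Among large subunit genes, Rpl38, known in mice for a skeletal patterning phenotype, had 62.4, 53.3 and 35.0 CPM in the WT libraries at 0 hr and 526, 580 and 408 CPM at 48 hr. Its log2 fold change of 3.33 (SE 0.29, edgeR adjusted p = 1.5e-07), or 10.1-fold, was the largest of the 75. Rpl5, which with Rpl11 and the 5S RNA forms the particle that can bind MDM2, rose from 228, 220 and 182 CPM to 2093, 2232 and 1857 CPM, a log2 fold change of 3.29 (SE 0.17, adjusted p = 8.6e-10). The 2 groups of libraries lay far apart in both genes. Rpl11 rose less, from 141 ± 27.7 CPM to 819 ± 106 CPM (SD, n = 3), a log2 fold change of 2.54 (SE 0.20). Rpl39 and Rpl41, the shortest proteins of the large subunit, rose by 3.12 (SE 0.27) and 2.50 (SE 0.25) on the log2 scale. Rpl10, which joins the large subunit last, rose by 2.77, Rpl36a by 2.85 and Rpl3, of the catalytic centre, by 2.11. At the low end Rpl13 went from 1144, 1382 and 893 CPM to 2836, 3066 and 2472 CPM, with a log2 fold change of 1.29 (SE 0.17, edgeR adjusted p = 1e-05). Rpl13a, known also outside the ribosome in the repression of inflammatory mRNAs, rose by 1.94 and Rpl22 by 2.45.

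Among small subunit genes Rps27a, which encodes ubiquitin fused to a ribosomal protein, changed most, from 177, 165 and 113 CPM in WT at 0 hr to 1283, 1459 and 1086 CPM at 48 hr. That was a log2 fold change of 3.07 (SE 0.23, edgeR adjusted p = 4.3e-08). Rps6, the substrate of the S6 kinases downstream of mTORC1, rose from 483, 523 and 368 CPM to 1884, 2053 and 1667 CPM (2.03, SE 0.17). Its libraries did not overlap between times. Rpsa rose by 2.13, Rps14 by 2.66 and Rps24 by 2.23 on the log2 scale. Rps19, the gene most often mutated in Diamond-Blackfan anaemia, rose less, from 583, 612 and 401 CPM to 1241, 1367 and 1038 CPM (1.19, SE 0.20, edgeR adjusted p = 0.00011). Rps9 rose by 1.15 (SE 0.16), from 450 ± 68.5 to 995 ± 77.3 CPM (SD, n = 3). With library totals alone the calls for Rps9 (0.26, adjusted p = 0.11) and Rps19 (0.31, adjusted p = 0.13) ended.

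The P stalk genes Rplp0 and Rplp1 had like changes, 2.11 (SE 0.14) and 2.13 (SE 0.22), while Rplp2 had 1.54 (SE 0.24). Rplp0, the base of the stalk, had 582, 653 and 489 CPM at 0 hr, then 2517, 2672 and 2268 CPM at 48 hr in WT. Rplp2 had 149, 94.4 and 88.0 CPM at 0 hr, then 340, 338 and 284 CPM at 48 hr. All 3 rose without overlap between libraries.

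Rps27, which encodes a zinc-binding protein of the small subunit, was the member farthest from the median and the one not called. It had 337, 330 and 198 CPM in WT at 0 hr, then 395, 468 and 329 CPM at 48 hr, so the groups overlapped. Its log2 fold change was 0.46 (SE 0.26, 95% interval -0.09 to 1.01, edgeR adjusted p = 0.12). In KO it had 403, 178 and 315 CPM at 0 hr, then 342, 393 and 390 CPM at 48 hr, again with overlap (0.33, SE 0.26, interval -0.22 to 0.88, adjusted p = 0.26). The next smallest change in WT was that of Rps9, at 1.15. The sign for Rps27 depended on scaling: upper-quartile scaling gave -0.20 in WT and -0.31 in KO, and library totals -0.42 and -0.48. When KO 0 hr replicate 5 was left out of the fit, Rps27 in WT was 0.47 with an adjusted p of 0.042, and all 75 members were then called higher.

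The KO libraries showed the same pattern. Again 74 of 75 members were higher at 48 hr and 0 lower, where 33% of all tested genes were higher and 37.7% lower, or 70.7% in all. In 74 members the KO libraries at 48 hr lay above those at 0 hr without overlap, and in none below, where 33% of all tested genes lay above and 39.5% below. The median log2 fold change was 1.94 (3.84-fold), against -0.30 over all tested genes, and the range ran from 0.33 for Rps27 to 3.09 for Rpl5. Rpl38 went from 74.2, 31.3 and 52.1 CPM to 383, 443 and 430 CPM (3.00, SE 0.28, edgeR adjusted p = 4.1e-07). Rps19 went from 860, 506 and 585 CPM to 1009, 1144 and 1067 CPM (0.72, SE 0.20, adjusted p = 0.0048), and this was the smallest called change. That call ended with upper-quartile scaling (0.086, edgeR adjusted p = 0.70), as did that of Rps9 in KO (0.30, adjusted p = 0.11). With library totals alone Rps19 turned to -0.094, Rps9 was at 0.12 (adjusted p = 0.48), and 69 members were called higher in place of 74.

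The order of the genes was shared between the genotypes, whose time comparisons have no library in common. Of the 10 members with the largest changes 9 were the same in WT and KO, as were 9 of the 10 with the smallest. Across the 75 genes the WT and KO changes had a Pearson r of 0.98, against 0.89 across all 19125 tested genes. This is a description over genes, which are not independent replicates. Per kilobase of the longest principal GENCODE M21 transcript, the highest levels in WT at 0 hr were those of Rpl13 (1461 CPM per kb), Rps27 (836) and Rps19 (687). All 3 were among the 4 members with the smallest changes. At 48 hr the order in WT was Rpl13 (3579 CPM per kb), Rps18 (2348), Rpl41 (2222), Rps6 (2127) and Rpl4 (2019). The level per kb at 0 hr was also set against the change in the other genotype, so that no library was shared. In WT the level had a Pearson r of -0.48 with the KO change, and in KO the level had -0.51 with the WT change. These levels depend on the transcript length used, from 345 bases in Rps27 to 5179 in Rps15a. Whether the longest principal transcript is the one expressed was not tested. GC content of the transcript had an r of -0.26 with the WT change over the 75 members, and log length 0.03. Over the 14577 of 19125 tested genes with a known GC content these were -0.04 and -0.17. The remaining tested genes had no value and are not covered.

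Between genotypes no member passed the test. At 0 hr 0 of 75 were called in either direction (edgeR adjusted p below 0.05, and 0 also at an unadjusted p below 0.05), where 0.68% of all tested genes were higher and 0.429% lower in KO, or 1.11% in all. DESeq2 and limma-voom also called 0. The median log2 fold change was 0.06, with 63 members above 0, and the extremes were 0.29 for Rps19 (SE 0.20, adjusted p = 0.70) and 0.22 for Rps28 against -0.10 for Rps13 and -0.05 for Rps18. All 75 intervals covered 0, with bounds from -0.55 to 0.80 on the log2 scale. Rps19 had 583, 612 and 401 CPM in WT and 860, 506 and 585 CPM in KO, so the groups overlapped. They overlapped in every member, whereas KO lay wholly above WT in 7.02% and wholly below in 7.92% of all tested genes.

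At 48 hr 0 of 75 members were called in either direction by edgeR, DESeq2 or limma-voom, and 0 had an unadjusted edgeR p below 0.05, where 1.47% of all tested genes were higher and 0.544% lower in KO, or 2.02% in all. All 75 values were below 0, with a median of -0.22 and a range from -0.41 to -0.08. They are not 75 separate observations, because members rise and fall together from library to library, as described next. Rps12 had 358, 409 and 300 CPM in WT and 239, 277 and 288 CPM in KO, which gave -0.41 on the log2 scale (SE 0.25, edgeR adjusted p = 0.51, 95% interval -0.94 to 0.12). It was 1 of 6 members, with Rpl15, Rpl22, Rpl36, Rplp1 and Rps9, whose KO libraries all lay below the WT libraries. That held for 9.53% of all tested genes, and 10.7% lay wholly above, as no member did. Rps15a followed with -0.36, and Rpl26 and Rps2 were nearest to 0 at -0.08. All 75 intervals covered 0, and together they ran from -0.95 to 0.47. The median was -0.38 without WT 48 hr replicate 9, and stayed between -0.32 and -0.16 without any other single library. Of 5 plasma cell markers 2 (Prdm1 and Sdc1) were called higher in KO at 48 hr, with sums of 644 to 821 CPM against 574 to 578 CPM in WT, as was 1 of 5 NK cell markers, Prf1 (summed level 3.37 to 12.1 CPM against 3.06 to 4.00 CPM), and T cell markers summed to 43.1 to 111 CPM against 37.6 to 41.2 CPM; their part in the member values was not tested.

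**Figure D2:**
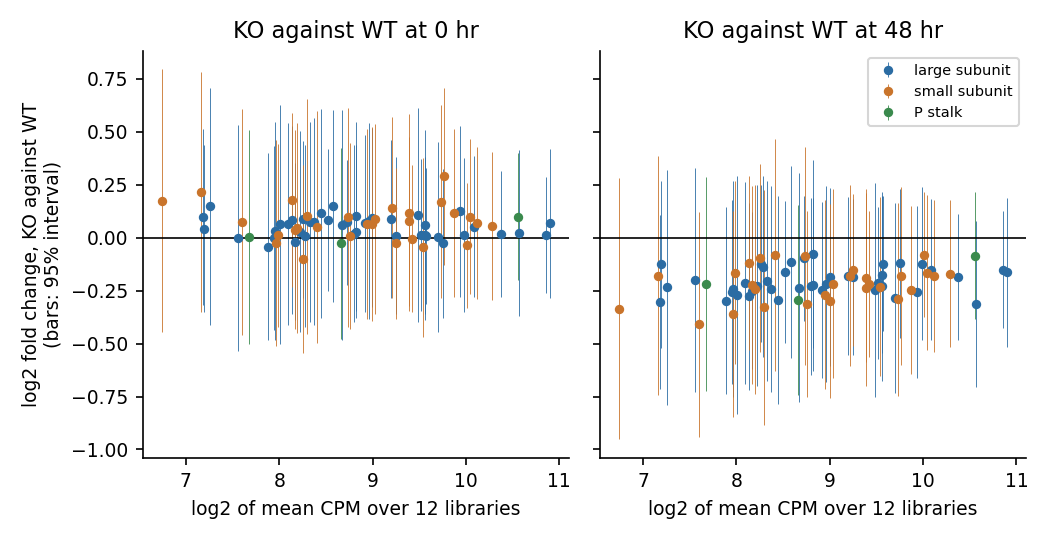
Log2 fold change of KO against WT for each gene at 0 hr (left) and 48 hr (right), with 95% intervals, against the log2 of its mean CPM. All intervals cross 0; the points centre on 0.06 at 0 hr and on -0.22 at 48 hr.

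The interaction, which tests whether the change from 0 hr to 48 hr differed between genotypes, called 0 of 75 members (0 at an unadjusted edgeR p below 0.05, and 0 by DESeq2 and limma-voom), where 0.068% of all tested genes were called higher and 0.0471% lower, or 0.115% in all. The change was larger in WT in 74 of 75 members, with a median difference of -0.27. The farthest values were -0.51 for Rps21 (SE 0.41, edgeR adjusted p = 0.79) and -0.48 for Rps12 (SE 0.35, adjusted p = 0.76). Rps13 was at 0.00. The median ranged with single libraries: leaving out KO replicate 4 (0 hr) gave -0.054, WT replicate 3 (0 hr) -0.11, WT replicate 9 (48 hr) -0.42 and KO replicate 5 (0 hr) -0.47.

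Within each group the members moved as a block. In WT at 0 hr, replicate 3 was the lowest of the 3 libraries for 75 of 75 members, and in KO at 0 hr replicate 5 was the lowest and replicate 4 the highest for 75 of 75. In WT at 48 hr replicate 9 was the lowest for 75 and replicate 8 the highest for 74, and in KO at 48 hr replicate 11 was the highest for 72. Over all tested genes, WT 0 hr replicate 3, KO 0 hr replicate 5 and WT 48 hr replicate 9 were the lowest of their group in 32.2%, 40.7% and 35.6%. The median deviation of a member from its group mean was 0.40 on the log2 scale in KO 0 hr replicate 4 and -0.45 in replicate 5. The median coefficient of variation of a member's CPM was 21.3% in WT 0 hr, 28.6% in KO 0 hr, 13.6% in WT 48 hr and 6.92% in KO 48 hr. As a share of the summed member counts, the same medians were 5.93%, 7.53%, 2.96% and 2.67%.

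**Figure D3:**
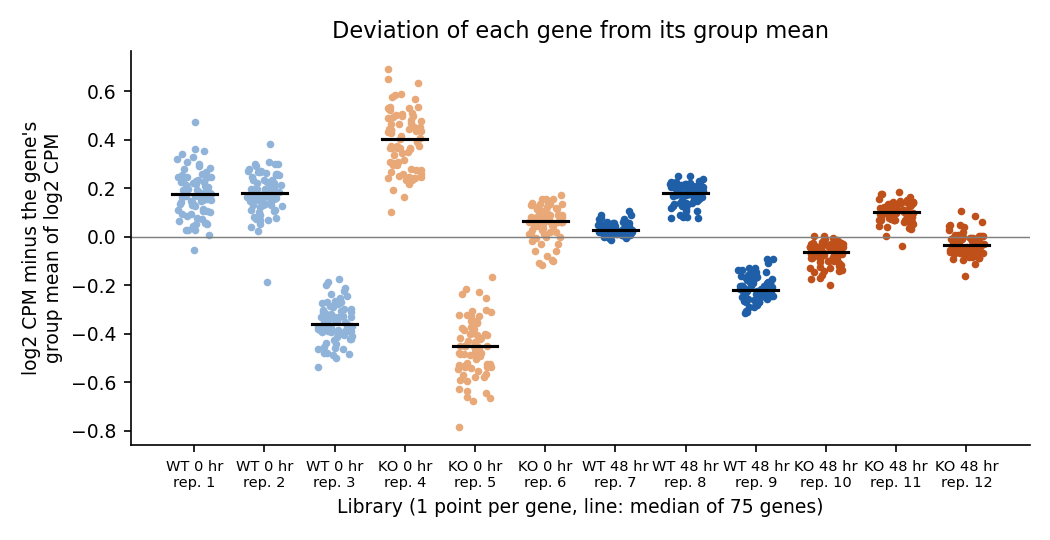
Deviation of each of the 75 genes from its own group mean of log2 CPM (1 point per gene), by library, with a line at the median. The points of a library lie together on 1 side of 0 in WT 0 hr replicate 3, KO 0 hr replicates 4 and 5, and WT 48 hr replicates 8 and 9.

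Markers of other cells also varied between the libraries at 0 hr, some with the members and some against them. Of the 5 erythroid markers 4 were in the table, and all 4 were lowest in WT 0 hr replicate 3 and KO 0 hr replicate 5 and highest in KO 0 hr replicate 4. Their sum ran from 276 to 396 CPM in WT 0 hr, from 124 to 1596 CPM in KO 0 hr and from 3.58 to 10.7 CPM at 48 hr, and none was at 0 in all libraries of a group. In the opposite direction, KO 0 hr replicate 5, the lowest for every member, was the highest of its group for 6 of 6 myeloid, 5 of 5 NK cell and 4 of 4 platelet markers. In WT at 0 hr replicate 2 was the highest for 6 of 6 myeloid, 4 of 5 NK cell and 4 of 4 platelet markers. Between genotypes at 0 hr, plasma cell markers summed to 359 to 491 CPM in WT and 512 to 815 CPM in KO, without overlap. By edgeR 1 of these 5 was called higher in KO and 0 lower, with 3 values above 0 and 2 below. T cell markers summed to 54.3 to 58.5 CPM in WT and 53.1 to 109 CPM in KO, with overlap and 0 of 6 called. The part of all these cells in the member values was not tested. Without WT 0 hr replicate 3 and KO 0 hr replicate 5 together, a choice made after the values were seen, 74 members were still higher at 48 hr in each genotype, with medians of 2.08 and 1.79, and 0 differed between genotypes at either time. The genotype median at 0 hr changed sign with single libraries. Leaving out KO replicate 4 gave -0.16, WT replicate 3 -0.098, and KO replicate 5 gave 0.26.

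As a share of all counts, the 75 genes took 2.49%, 2.50% and 1.88% in the WT libraries at 0 hr and 2.91%, 1.77% and 2.31% in KO. At 48 hr they took 5.53%, 5.99% and 4.85% in WT and 4.76%, 5.15% and 4.75% in KO. Every stimulated library was above every unstimulated one, and the genotypes overlapped at 0 hr. At 48 hr the WT range reached down to 4.85%, inside the KO range of 4.75% to 5.15%. The mean share went from 2.29% ± 0.352 to 5.46% ± 0.572 in WT (SD, n = 3), a ratio of 2.38, and from 2.33% ± 0.570 to 4.88% ± 0.229 in KO, a ratio of 2.10. Both time comparisons had an exact 2-sided permutation p of 0.1, the smallest that 3 against 3 allows. The genotypes differed, KO minus WT, by 0.0404 percentage points at 0 hr (exact permutation p = 1) and by -0.574 at 48 hr (exact permutation p = 0.2).

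**Figure D4:**
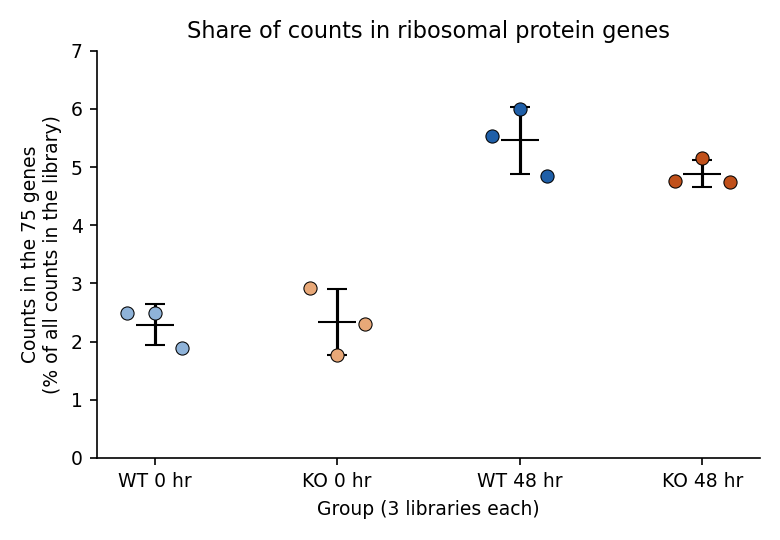
Share of all counts in the 75 genes, by group: points are the 3 libraries, and the bar is the mean with its SD. All 6 stimulated libraries lie at 4.75% or above, and all 6 unstimulated ones at 2.91% or below.

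Rps4x, Rps3a1, Fau and Rack1, ribosomal proteins outside the naming rule, all rose in both genotypes, where 33% of all tested genes rose in each. None of them differed between genotypes (0 of 4 at an unadjusted edgeR p below 0.05 at either time). Rack1, the scaffold on the small subunit, had a WT log2 fold change of 2.64, Rps4x 2.49 and Rps3a1 2.38. Fau, which encodes a ubiquitin-like protein fused to a ribosomal protein, had a smaller one, 1.37 (SE 0.21). With library totals alone the call for Fau ended in KO (0.33, edgeR adjusted p = 0.13).

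Paralogs, the near copies of ribosomal protein genes, did not all keep pace with the main gene. Of the 9 listed 6 were tested, of which 5 rose in WT and 4 in KO, where 33% of all tested genes rose in each. By edgeR Rps4l was not called in either (0.57, adjusted p = 0.067 in WT, and 0.56, adjusted p = 0.078 in KO). DESeq2 called it in both (0.67, adjusted p = 0.020, and 0.60, adjusted p = 0.042) and limma-voom in WT (0.57, adjusted p = 0.047). Its sign depended on scaling, with -0.10 in WT and -0.07 in KO under upper-quartile scaling. Rpl3l and Rpl10l fell below the low-count filter, and Rps27rt was not analysed here. Rps27l, a p53-responsive paralog of Rps27, rose from 31.2, 30.5 and 21.7 CPM to 435, 494 and 360 CPM in WT, a log2 fold change of 3.95 (SE 0.21, edgeR adjusted p = 1e-09), where Rps27 had 0.46. For every 100 counts of Rps27 there were 9.27, 9.24 and 10.9 counts of Rps27l in WT at 0 hr and 110, 106 and 110 at 48 hr. In KO there were 8.99, 12.1 and 9.07 at 0 hr and 114, 107 and 95.2 at 48 hr. The times did not overlap in either genotype and the genotypes overlapped at both times.

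Rpl22l1 rose by 3.29 (SE 0.24) in WT, and its counts per 100 of Rpl22 went from 61.9 ± 0.962 to 110 ± 2.49 (SD, n = 3) in WT and from a mean of 62.4 to 109 in KO, without overlap in either. Rpl7l1, a relative of Rpl7, rose less than its partner: its counts per 100 of Rpl7 went from 42.8 ± 4.93 to 28.1 ± 1.58 in WT and from 48.1 ± 10.9 to 28.9 ± 2.26 in KO. Rpl36al held 153 ± 11.6 and 161 ± 8.88 counts per 100 of Rpl36a in WT at 0 and 48 hr, with overlap. Each of the 6 time comparisons for Rps27l, Rpl22l1 and Rpl7l1 had an exact permutation p of 0.1, the smallest possible, and 0.333 after adjustment over the 20 ratios tested. None of the genotype comparisons of these ratios had an adjusted p below 0.571. Rpl39l stayed under 0.4 CPM in every library, and its call in WT (edgeR adjusted p = 0.021) was lost in several alternatives. Reads of near-identical genes are shared out by estimation, so these ratios carry that uncertainty.

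**Figure D5:**
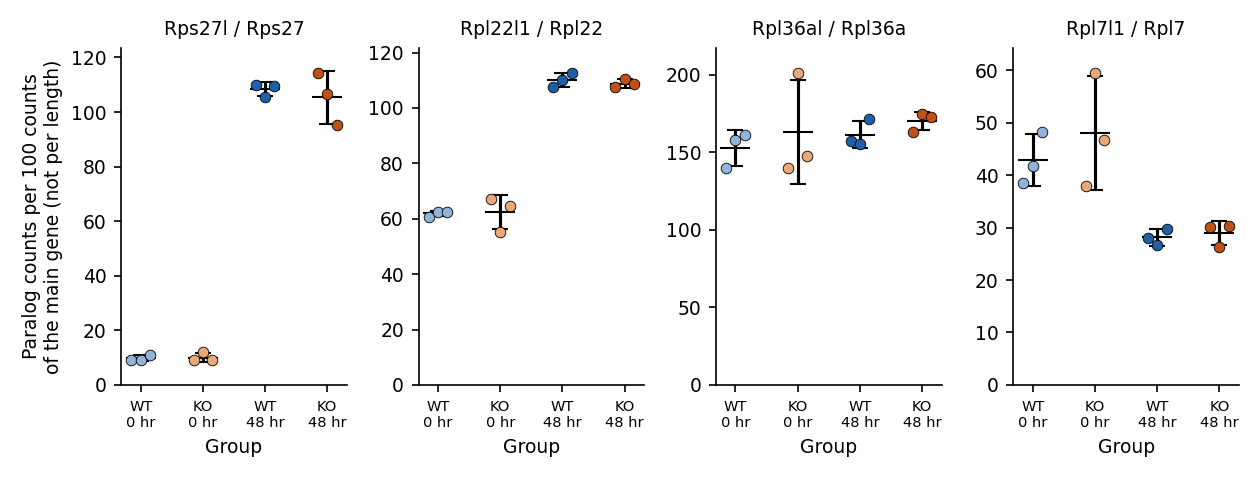
Counts of each paralog per 100 counts of the main gene, not corrected for length, by group: points are libraries and bars the mean with its SD. Rps27l went from near 10 to above 95 and Rpl22l1 from near 62 to near 110, while the ratio of Rpl7l1 was lower at 48 hr and that of Rpl36al overlapped.

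Other genes of the same systems were taken from lists. Over time 33% of all tested genes were called higher in each genotype, and 40.9% in WT and 37.7% in KO lower. The WT median of all tested genes was -0.39, and -1.28 with library totals alone. Of 18 further TOP genes, most of them for elongation and initiation factors, with RNA-binding proteins, chaperones, Tpt1, Vim and the non-coding Gas5, 18 rose in WT and 17 in KO, with a WT median of 1.78. Npm1, a nucleolar chaperone, had 227, 230 and 185 CPM in WT at 0 hr, then 3537, 3855 and 3170 CPM at 48 hr (4.04, SE 0.16, edgeR adjusted p = 9.5e-11). Hnrnpa1 had 3.39 and Eif3e 3.11, while the elongation factors Eef1a1 and Eef2 had 1.27 and 0.88 and Eif3f 0.42. Vim, the intermediate filament gene, was the one not called in KO (0.01). With library totals alone 14 of the 18 rose and 1 fell in WT, with a median of 0.89, and the values of Eef2, Eif3f and Vim turned to -0.0086, -0.47 and -0.30. None of the 18 differed between genotypes at either time (edgeR, 0 at an unadjusted p below 0.05 at 0 hr and 1 at 48 hr). All 8 listed chaperones of ribosomal proteins rose in both genotypes, with Heatr3 at 2.65, Grwd1 at 2.53 and Ltv1 at 2.50 in WT. None of the 8 differed between genotypes (edgeR, 1 and 2 at an unadjusted p below 0.05 at 0 and 48 hr). With library totals alone 6 of the 8 rose and 1 fell in WT, and 5 rose in KO.

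Of 16 genes around mTORC1 and LARP1, 9 rose and 2 fell in WT, and 9 and 2 in KO. Among all tested genes 33% rose and 40.9% fell in WT, and 33% and 37.7% in KO. The balance of the 16 depended on scaling. With upper-quartile scaling 5 rose and 6 fell in each genotype, and with library totals 4 rose and 8 fell in WT and 4 and 7 in KO. Under those 2 scalings the median of all tested genes also moved, to -1.06 and -1.28 in WT and to -0.93 and -1.12 in KO. Eif4ebp1, a translation repressor that mTORC1 phosphorylates, rose from 16.8 ± 1.66 to 156 ± 17.2 CPM (SD, n = 3) in WT (3.21, SE 0.13, edgeR adjusted p = 9.6e-11). The cap-binding factor Eif4e rose by 2.75 and Larp1 by 1.58. Deptor, an inhibitor of mTOR, fell by 2.13 (SE 0.29) and Tsc1, a brake on the pathway, by 0.54, and the Tsc1 call in WT was lost without replicate 3 (0 hr) or 8 (48 hr). Mtor itself had 0.60, and -0.29 with library totals alone. None of the 16 differed between genotypes at 0 or 48 hr; 1 had an unadjusted edgeR p below 0.05 at each time, and for Eif4ebp1 at 0 hr the value was 0.35 (adjusted p = 0.25).

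Free Rpl5 and Rpl11 are known to signal to p53 through MDM2. Of 4 genes of this axis (Trp53, Cdkn1a, Mdm2 and Mdm4), 1 was called higher in KO at 0 hr and 2 at 48 hr, and none lower, where 1.11% and 2.02% of all tested genes were called. Those numbers held under all 3 scalings. Trp53 had 38.9, 37.8 and 42.0 CPM in WT and 84.2, 86.0 and 120 CPM in KO at 0 hr (1.29, SE 0.14, edgeR adjusted p = 0.0003). At 48 hr it had 55.3, 61.1 and 61.6 CPM in WT and 185, 176 and 221 CPM in KO (1.71, SE 0.14, adjusted p = 1.8e-05). The groups did not overlap at either time. Cdkn1a, a p53 target that blocks the cell cycle, had 3.91, 3.73 and 2.79 CPM in WT and 12.8, 6.70 and 10.6 CPM in KO at 48 hr (1.53, SE 0.28, adjusted p = 0.014). Leaving out any WT replicate at 48 hr, or KO replicate 10, lifted the adjusted p to between 0.062 and 0.090. Mdm2 and Mdm4 were not called between genotypes at either time (0.32 with edgeR adjusted p = 0.13, and -0.06 with adjusted p = 0.86, at 48 hr). At 48 hr neither was Rpl5 (-0.15, adjusted p = 0.73) nor Rpl11 (-0.22, adjusted p = 0.67) called.

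Of the 130 transcripts 3 were described in the table as non-coding, and they took 0.0705% of member counts in WT at 0 hr and 0.0315% at 48 hr, 0.0587% and 0.0320% in KO (exact permutation p = 0.1 in each, the smallest possible). A smaller share here is not a fall in these transcripts, since the summed member counts rose. The Rps27 non-coding transcript (uc012cst.1) went from 11.4 ± 2.40 to 22.5 ± 3.23 CPM in WT (SD, n = 3) and from 10.1 ± 3.58 to 19.9 ± 0.709 CPM in KO, or from 4.06% to 5.70% and from 3.42% to 5.30% of its gene's counts. For the share of member counts, the genotypes had exact permutation p values of 0.3 at 0 hr and 0.7 at 48 hr. The following splits were chosen after their values were seen and have no test. A minor mRNA of Rps19 (uc009fqs.1) took 0.827% ± 0.201 of the gene's counts in WT at 0 hr and 5.89% ± 0.502 at 48 hr (SD, n = 3), and 0.690% ± 0.196 and 5.52% ± 0.172 in KO. A minor mRNA of Rpl22 (uc033igy.1) took 10.3% ± 2.50 in WT at 0 hr and 1.75% ± 0.871 at 48 hr, and 9.26% ± 6.44 and 1.00% ± 0.752 in KO. Its own level was 4.86 ± 0.777 and 4.43 ± 1.97 CPM in WT, and 4.98 ± 3.46 and 2.14 ± 1.62 CPM in KO. The main Rpl22 mRNA (uc008wah.2) went from 42.5 ± 7.61 to 259 ± 42.7 CPM in WT and from 46.0 ± 14.2 to 211 ± 6.12 CPM in KO. The main Rps27 mRNA (uc008qbl.2) took 78.6% ± 0.284 and 79.2% ± 1.94 in WT, and 78.3% ± 1.02 and 77.9% ± 0.570 in KO.

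The members are spread over the genome, with 14 on chromosome 7 and 3 on the X chromosome (Rpl10, Rpl36a and Rpl39). On chromosome 6, which carries Chd4, there is 1 member, Rpl32, with log2 fold changes between genotypes of 0.00 at 0 hr and -0.28 at 48 hr. The X-linked members had values of -0.03, 0.15 and 0.00 at 0 hr and -0.12, -0.23 and -0.20 at 48 hr, each with an interval that covered 0, within the range of the other members.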

How the data were processed

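The submitters' processing notes list bcl2fastq 2.20.0.422, Trimmomatic 0.36, Salmon 0.8.2, DESeq2 1.14.1 and the mm10 build. The authors deposited a table of estimated counts per transcript and library, in whole numbers. Per the labels' protocols, RNA was amplified with the SMART-Seq v4 Ultra Low Input kit, which does not mark strand. Reads of near-identical copies are shared out by estimation; 6 pseudogene rows named after members held 0.153% as many counts as the members.

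Names were trimmed (344 changed) and transcripts summed to symbols. After filterByExpr, edgeR 4.0.16 (R 4.3.3) fitted all 12 libraries in 1 robust quasi-likelihood model of 4 groups, with 8 residual degrees of freedom. TMM scaling factors ran from 1.28 to 1.42 at 0 hr and from 0.723 to 0.766 at 48 hr, and CPM use the scaled totals. Benjamini-Hochberg adjustment covered every tested gene. The procedure was tested on simulated data in which each gene was drawn independently. That test does not cover genes that move as a block, as the members did. Shares and ratios were compared by exact permutation over libraries. Transcript length and GC came from GENCODE M21, promoters from RefSeq on GRCm38.p6.

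Members and lists were chosen with earlier results of these data known. Named genes were, per comparison, the 3 called members with the largest and the 3 with the smallest changes (or the 2 farthest each way), a fixed set of standing members, companions and paralogs, and up to 3 called genes each way in other lists; others were named after their values were seen, and some are not reported here. Alternatives were other scalings and filters (those of the companion lists added after the values were seen), DESeq2 1.42.0, limma-voom (limma 3.58.1), separate fits, pooled pseudogenes, protein-coding transcripts and left-out libraries.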

Additional observations from a re-analysis of the deposited data

How the results depend on the processing

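Over 25 alternatives, 181 of 205 results for named genes stayed on their side of the threshold in each alternative that gave a value, and 79 of 99 called ones did so with their direction. No member was called between genotypes or in the interaction under any of them. Across all alternatives the median of the members ranged from -0.16 to 0.26 for KO against WT at 0 hr, from -0.38 to -0.16 at 48 hr and from -0.47 to -0.05 for the interaction. The time medians stayed above 0 and moved with scaling: in WT to 1.57 (upper quartile) and 1.36 (library totals), and in KO to 1.30 and 1.12. Under those scalings Trp53 over time in WT turned to -0.091 and -0.31, and Mdm2 to -0.055 and -0.27, and Rps19 over time in KO turned to -0.094 with library totals. Rps27, not called, fell below 0 in both genotypes under both. The members called higher were 72 in WT and 69 in KO with library totals. The share of all counts differed over time by 2.90 to 3.47 percentage points in WT and 2.27 to 2.84 in KO when single libraries were left out, and between genotypes by -0.251 to 0.319 at 0 hr and -0.877 to -0.308 at 48 hr.

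The restriction to retained-intron or decay transcripts was not run, because the table's transcripts are not paired with such classes. No paired analysis was possible because the replicate numbers run from 1 to 12 and no 2 groups share one. With 3 libraries a group, exact tests cannot go below 0.1, and the median SE of a member between genotypes was 0.20.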
